A study of Homo sapiens with 18 samples.

Results

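Feedback genes of the ERK pathway and ligands of the EGF receptor (EGFR) were examined in RKO cells depleted of the ESCRT-I subunits Tsg101 or Vps28. The set holds 10 of the 20802 transcript targets of the panel and was chosen by gene symbol, with earlier results of these data known. It comprises 6 negative regulators, namely SPRY2, SPRY4, SPRED1, DUSP6, DUSP5 and DUSP4, and 4 ligands, namely HBEGF, TGFA, AREG and EREG. RKO is an established human colorectal carcinoma line, and no engineered allele was used. Cells were transfected with 30 nM of one siRNA and collected after 72 h. The controls were the nontargeting siRNAs siCtrl#1 and siCtrl#2, Tsg101 was depleted with siTsg101#1 or siTsg101#2, and Vps28 was depleted with siVps28#1 or siVps28#2. Each of the 6 siRNA groups had 3 replicates, and the labels give the replicate number as the batch, so that every batch held 1 library of each group. All groups, the controls included, carried a transfected siRNA, and untransfected cells were not analysed here. Libraries came from a targeted panel that amplifies a short stretch of each transcript, and their values are read counts per target. In bulk RNA, fewer transcripts per cell cannot be told apart from fewer cells that carry them.

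Counted reads per library ranged from 2561790 to 7466916 (median 5022216). The library with the fewest counted reads was replicate 1 of siTsg101#1. TSG101 lay between 74.5 and 167 normalised CPM (counts scaled to an equal, TMM-normalised library size) in the 12 libraries without an siRNA against it and between 2.49 and 4.99 CPM in the 6 libraries with one. VPS28 lay between 65.1 and 112 CPM in the libraries without an siRNA against it and between 3.48 and 7.78 CPM in the 6 with one. The targeted transcript was therefore low in every library labelled as depleted. Of 9 epithelial markers, EPCAM, KRT8, KRT18 and CDX2 were detected, with 6.71 ± 2.23, 23.4 ± 2.00, 78.2 ± 6.08 and 33.9 ± 4.03 CPM in siCtrl#1 (SD, n = 3). CDH1 had 0 counts in all libraries together, and KRT19, KRT20, CDX1 and VIL1 had between 1 and 6. The leukocyte, endothelial and fibroblast markers PTPRC, PECAM1 and COL1A1 had 0, 10 and 50 counts in total. KRT8 was lower with siTsg101#1 (log2 fold change −1.31 ± 0.27 SE, edgeR adjusted p = 0.00103) and in the mean of the 4 on-target siRNAs (−0.69 ± 0.20, edgeR adjusted p = 0.0127). EPCAM was higher with siTsg101#1 (0.96 ± 0.27, edgeR adjusted p = 0.0119), in the mean of the 4 (0.65 ± 0.23, edgeR adjusted p = 0.0381) and with siCtrl#2 (1.02 ± 0.27, edgeR adjusted p = 0.0473). The part of these marker differences in the results was not tested.

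EGFR and its relatives at the cell surface activate RAS, RAF, MEK and finally the kinase ERK, and ERK switches on genes that damp its own pathway. Sprouty and SPRED proteins act between the receptor and RAF, whereas dual-specificity phosphatases (DUSPs) remove the phosphates from ERK itself. The ligands close a loop in the other direction, since they are made as membrane-bound precursors, shed by metalloproteases such as ADAM17, and then bind EGFR on the same or a neighbouring cell. ESCRT-I sorts ubiquitinated membrane proteins, EGFR among them, into vesicles inside endosomes on the way to the lysosome.

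The sequences in front of 3 start sites are shown because SPRY2, DUSP6 and HBEGF are the members whose mean level changed. Each run is the 250 bases before an annotated start of RefSeq in GRCh38.p14, printed 5′ to 3′ on the gene's strand, with the letters CGGAA (the core that ETS factors bind) and TGACG (found in cAMP response elements) in capitals, on either strand, so that TTCCG marks a CGGAA of the opposite strand.
SPRY2, chr13:80341127-80341376, minus strand: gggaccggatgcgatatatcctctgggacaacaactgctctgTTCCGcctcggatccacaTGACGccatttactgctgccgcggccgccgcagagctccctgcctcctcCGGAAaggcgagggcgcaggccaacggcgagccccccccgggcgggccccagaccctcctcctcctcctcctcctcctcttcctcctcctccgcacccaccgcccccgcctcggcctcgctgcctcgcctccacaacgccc
DUSP6, chr12:89352502-89352751, minus strand: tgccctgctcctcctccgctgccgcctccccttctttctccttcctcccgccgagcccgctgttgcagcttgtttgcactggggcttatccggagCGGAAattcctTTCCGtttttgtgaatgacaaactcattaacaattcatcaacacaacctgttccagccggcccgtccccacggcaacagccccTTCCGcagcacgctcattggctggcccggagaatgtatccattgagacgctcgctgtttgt
HBEGF, chr5:140346604-140346853, minus strand: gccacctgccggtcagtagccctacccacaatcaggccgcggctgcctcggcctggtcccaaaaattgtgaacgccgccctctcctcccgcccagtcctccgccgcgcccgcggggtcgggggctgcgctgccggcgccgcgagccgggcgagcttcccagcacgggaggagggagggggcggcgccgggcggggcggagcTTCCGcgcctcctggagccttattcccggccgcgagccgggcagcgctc
The SPRY2 run holds 2 matches to CGGAA and 1 to TGACG, the DUSP6 run holds 3 matches to CGGAA, and the HBEGF run holds 1. The windows before 2 further starts of SPRY2 hold none of the motifs searched. Of the 10 genes, 8 were found in the promoter table, with 11 windows in all. CGGAA was present in 7 of the 11 windows, against 30.3% of all 35116 windows of this length, and TGACG in 5 of 11, against 21.2%. TGANTCA, the AP-1 site, was present in 0 of 11 windows and in 6.57% of all. The CArG box of serum response factor was present in 0 of 11 and in 1.16% of all, and the NFkB consensus in 1 of 11, a start of TGFA, and in 5.21% of all. The motifs searched do not overlap in the printed runs. Such matches are descriptions of letters and not of bound factors.

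The depletions were compared with siCtrl#1 in 1 fit of all groups without a batch term, and a fit with the batch as a block was an alternative. A call here means a change of 1.5-fold or more with a Benjamini-Hochberg adjusted p-value under 0.05 in edgeR's quasi-likelihood test over 10213 genes. Of the 10 genes, 8 had enough counts to be tested. SPRY2, DUSP6 and HBEGF were the members that rose in the mean of the 4 on-target siRNAs, and DUSP4 was the one that fell with single siRNAs, both against Vps28. Of the 8, 3 members rose and 0 fell with siTsg101#1, where 11.8% of all tested genes rose and 10.1% fell. With siTsg101#2 1 member rose and 0 fell, beside 10.4% and 6.66% of all genes. With siVps28#1 3 rose and 1 fell, beside 4.92% and 3.75%, and with siVps28#2 3 rose and 1 fell, beside 7.09% and 6.23%. The member that rose with all 4 siRNAs, SPRY2, is 1 of 8, beside 2.58% of all genes that rose and 1.54% that fell with all 4. In the mean of the 4 siRNAs 3 members rose and 0 fell, beside 8.56% and 6.54%, and the median log2 change of the 8 was 0.58, beside −3.4e-03 over all tested genes. With siCtrl#2 0 members were called, beside 1.41% that rose and 0.676% that fell, and the median log2 change of the 8 was 0.20. Because the set was chosen with earlier results known, these shares and medians are descriptions only. At an unadjusted p under 0.05 the siCtrl#2 contrast counted 2 members as higher, SPRY2 and DUSP6, beside 7.74% of all genes, and DESeq2 called 0. With the batch as a block, DUSP6 and SPRY4 were also called with siTsg101#2, so that DUSP6 was then called with all 4 siRNAs. DUSP6 was then called with siCtrl#2 as well (0.71 ± 0.17, edgeR adjusted p = 0.0202).

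SPRY2 blocks the pathway below the receptor and binds the ubiquitin ligase CBL. Without a batch term it was the only member that rose with all 4 on-target siRNAs, by 1.72-fold to 3.01-fold relative to siCtrl#1. SPRY4, a close relative, and SPRED1, which brings the RAS inhibitor neurofibromin to the membrane, did not pass the test in any of the 4 comparisons. SPRY2 lies at chr13:80910111-80915261 (GRCh37, minus strand, 3 exons after merging transcripts).

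SPRY2 stood at 39.2, 45.2 and 50.1 CPM in the 3 libraries of siCtrl#1 and at 66.4, 61.4 and 65.3 CPM in those of siCtrl#2. With siTsg101#1 it stood at 187, 100 and 120 CPM, and with siTsg101#2 at 93.4, 68.2 and 70.5 CPM. With siVps28#1 it stood at 89.7, 92.2 and 65.9 CPM, and with siVps28#2 at 105, 95.8 and 128 CPM. All 12 on-target libraries lay above all 3 siCtrl#1 libraries, as did 5.87% of all tested genes. The lowest on-target library, replicate 3 of siVps28#1, lay below the highest siCtrl#2 library, so that the on-target and the nontargeting libraries overlapped, and 0 members had all 12 on-target above all 6 nontargeting libraries, beside 1.96% of all tested genes. The highest value, in replicate 1 of siTsg101#1, belongs to the library with the fewest reads.

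The log2 fold change of SPRY2 relative to siCtrl#1 was 1.59 ± 0.21 (SE) with siTsg101#1 (edgeR adjusted p = 5.38e-06) and 0.79 ± 0.20 with siTsg101#2 (edgeR adjusted p = 0.0081). It was 0.88 ± 0.21 with siVps28#1 (edgeR adjusted p = 0.00752) and 1.28 ± 0.20 with siVps28#2 (edgeR adjusted p = 0.000131). The mean over the 4 siRNAs was 1.13 ± 0.17 (edgeR adjusted p = 4.51e-05). Within batches, all 12 differences from the siCtrl#1 library of the same batch were positive, between 0.40 and 2.25. siCtrl#2 itself stood 0.52 ± 0.21 above siCtrl#1 (edgeR adjusted p = 0.223). Against siCtrl#2, the change of SPRY2 was 1.07 with siTsg101#1 (edgeR adjusted p = 0.000576), 0.26 with siTsg101#2 (edgeR adjusted p = 0.393), 0.36 with siVps28#1 (edgeR adjusted p = 0.388) and 0.76 with siVps28#2 (edgeR adjusted p = 0.0157). The mean over the 4 remained past the threshold against siCtrl#2, at 0.61 ± 0.16 (edgeR adjusted p = 0.0124). The siTsg101#2 call was also lost without replicate 1 of siTsg101#2, at 0.63 (edgeR adjusted p = 0.059), and the siVps28#1 call without replicate 1 of siCtrl#1, at 0.79 (edgeR adjusted p = 0.0503).

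**Figure D1:**
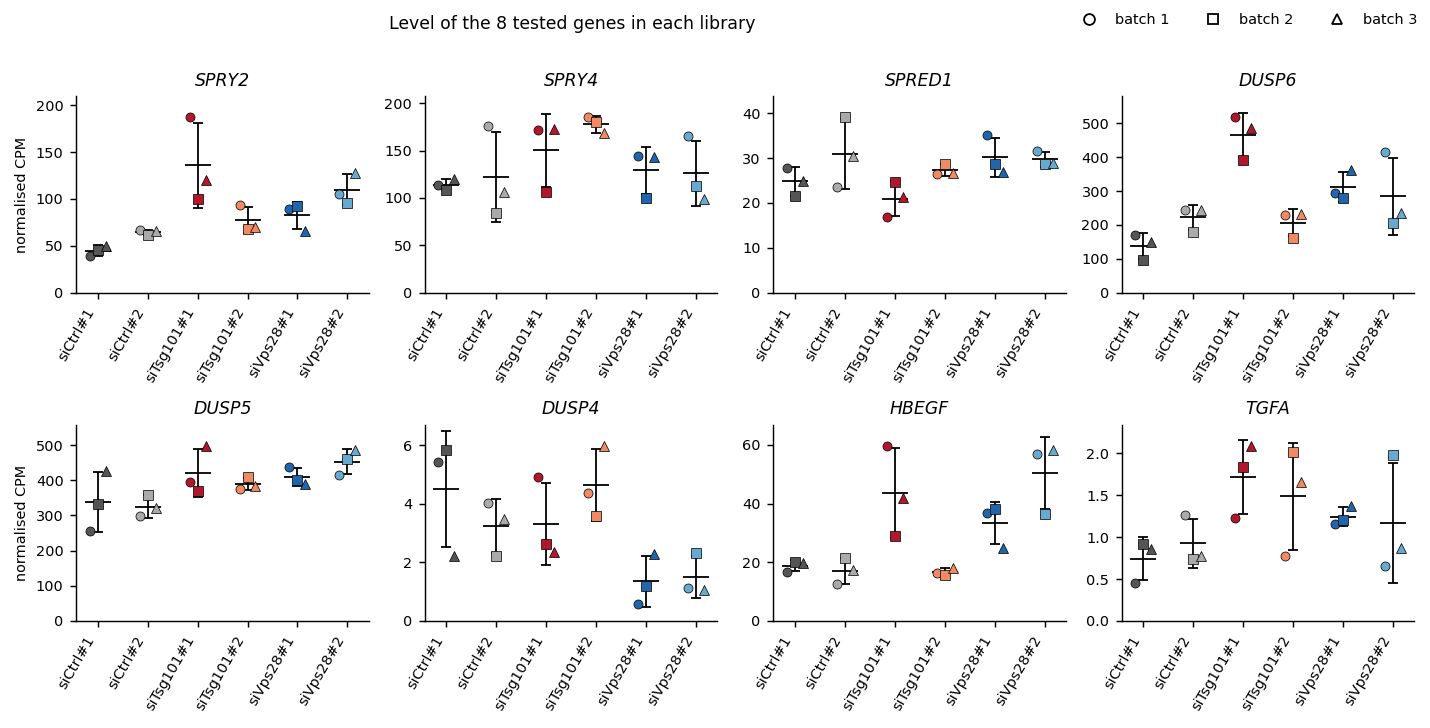
Level of the 8 tested genes in normalised CPM (vertical axes, each from 0) in the 6 siRNA groups. Each point is 1 library, its shape gives the batch, and the bars give the mean ± SD of the 3 libraries; SPRY2 is above all 3 siCtrl#1 libraries in all 12 on-target libraries, and HBEGF with siTsg101#2 lies between 15.6 and 18.1 CPM, at the level of the controls.

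SPRY4 (chr5:141689992-141706020, GRCh37) ranged from 84.2 to 176 CPM in the 6 nontargeting libraries, with a median of 111, and from 99.3 to 185 CPM in the 12 on-target libraries, with a median of 154. Its largest difference was with siTsg101#2, whose 3 libraries stood at 185, 180 and 168 CPM, above the 114, 108 and 120 CPM of siCtrl#1, and 1 siCtrl#2 library reached 176 CPM. The log2 fold change there was 0.64 ± 0.23 (95% interval 0.16 to 1.13, edgeR adjusted p = 0.0518). With the batch as a block it was 0.65 ± 0.19 and passed the test (edgeR adjusted p = 0.0137). With the other 3 siRNAs SPRY4 differed from siCtrl#1 by 0.14 to 0.40, and none of these differences passed the test. SPRED1 (chr15:38545037-38649450, GRCh37) ranged from 21.5 to 39.1 CPM in the nontargeting and from 16.8 to 35.1 CPM in the on-target libraries. Its mean change was 0.11 ± 0.15 (95% interval −0.21 to 0.43, edgeR adjusted p = 0.659), and 261 bases of its transcript are shared with other loci, which the counting could split.

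Among the phosphatases, DUSP6 rose, DUSP4 fell with the Vps28 siRNAs and DUSP5 did not pass the test. DUSP6, the cytoplasmic phosphatase that acts on ERK, rose by 3.37-fold when siTsg101#1 was used, and by 2.26-fold and 2.06-fold with the first and second Vps28 siRNA. DUSP4, a nuclear phosphatase of ERK and its relatives, was at 0.33 and 0.351 of the siCtrl#1 level with siVps28#1 and siVps28#2, on few reads. DUSP6 lies at chr12:89741012-89746278 and DUSP5 at chr10:112257665-112271291 (GRCh37). An antisense gene, ENSG00000274021, overlaps 1105 exonic bases of DUSP6, and the strand setting of the counting is not given in the sources used here.

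DUSP6 stood at 169, 95.9 and 150 CPM with siCtrl#1 and at 243, 179 and 244 CPM with siCtrl#2. With siTsg101#1 it stood at 518, 393 and 488 CPM, above all 6 nontargeting libraries. With siTsg101#2 it stood at 228, 162 and 231 CPM, within the range of the controls. With siVps28#1 it stood at 294, 279 and 363 CPM, again above all of them, and with siVps28#2 at 416, 206 and 234 CPM, of which only replicate 1 was above them. Batch 2 gave the lowest value in all 6 groups.

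The log2 fold change of DUSP6 relative to siCtrl#1 was 1.75 ± 0.24 with siTsg101#1 (edgeR adjusted p = 1.14e-05), 1.17 ± 0.24 with siVps28#1 (edgeR adjusted p = 0.00246) and 1.04 ± 0.24 with siVps28#2 (edgeR adjusted p = 0.00379). With siTsg101#2 it was 0.58 ± 0.24 (edgeR adjusted p = 0.0834), and with the batch as a block it was 0.60 ± 0.17 and passed the test (edgeR adjusted p = 0.0129). The mean over the 4 siRNAs was 1.14 ± 0.20 (edgeR adjusted p = 0.000228), and all 12 within-batch differences were positive, between 0.44 and 2.04. siCtrl#2 differed from siCtrl#1 by 0.68 ± 0.24 (edgeR adjusted p = 0.153), a difference that also passed the test with the block (0.71 ± 0.17, edgeR adjusted p = 0.0202). Against siCtrl#2, siTsg101#1 kept its call at 1.07 (edgeR adjusted p = 0.00229). Both Vps28 calls were lost against siCtrl#2, at 0.49 ± 0.23 with siVps28#1 (edgeR adjusted p = 0.285) and 0.36 ± 0.23 with siVps28#2 (edgeR adjusted p = 0.382), as was that of the mean over the 4 siRNAs, at 0.46 ± 0.19 (edgeR adjusted p = 0.109). Without replicate 1 of siVps28#2 the change with that siRNA was 0.67 and lost its call (edgeR adjusted p = 0.052). The 3 within-batch differences of siCtrl#2, between 0.53 and 0.90, were as large as those of siTsg101#2, between 0.44 and 0.75.

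DUSP4 was counted with 2 to 36 reads per library. The siCtrl#1 libraries held 24, 19 and 13 counts and the siCtrl#2 libraries 16, 9 and 18. The siTsg101#1 libraries held 12, 10 and 17 counts and the siTsg101#2 libraries 28, 23 and 36. The siVps28#1 libraries held 2, 5 and 10 counts and the siVps28#2 libraries 7, 14 and 6. Both Vps28 groups were low, and replicate 3 of siCtrl#1, at 2.22 CPM, lay inside their range of 0.581 to 2.31 CPM. The log2 fold change was −1.60 ± 0.50 with siVps28#1 (95% interval −2.63 to −0.58, edgeR adjusted p = 0.0425) and −1.51 ± 0.45 with siVps28#2 (−2.45 to −0.57, edgeR adjusted p = 0.0248). It was −0.50 ± 0.44 with siTsg101#1 (edgeR adjusted p = 0.43) and 0.10 ± 0.39 with siTsg101#2 (edgeR adjusted p = 0.887). The mean over the 4, −0.88 ± 0.34, did not pass (edgeR adjusted p = 0.0625). Both Vps28 calls were lost without replicate 1 or replicate 2 of siCtrl#1, at −1.40 to −1.30. The siVps28#1 call was lost too without replicate 1 or 2 of siVps28#1 or replicate 1 of siTsg101#2, at −1.60 to −1.29, and the siVps28#2 call without replicate 1 or 3 of siVps28#2, at −1.34 and −1.32. Against siCtrl#2 both were lost, where the changes were −1.20 (edgeR adjusted p = 0.221) and −1.10 (edgeR adjusted p = 0.15). Of 26 alternative settings in all, the siVps28#1 call was kept in 19 and the siVps28#2 call in 21.

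DUSP5, a nuclear phosphatase of ERK, ranged from 255 to 426 CPM in the nontargeting libraries and from 370 to 498 CPM in the on-target libraries. Its siCtrl#1 libraries were spread widely, at 255, 333 and 426 CPM. The mean change was 0.30 ± 0.13 (95% interval 0.02 to 0.58, edgeR adjusted p = 0.107), with 10 of 12 within-batch differences positive, so that a rise of up to 0.58 on the log2 scale lies inside the interval.

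Of the 4 ligands 1 was called. HBEGF, the heparin-binding ligand of EGFR and ERBB4 (chr5:139712428-139726188, GRCh37), rose with 3 of the 4 on-target siRNAs, by 1.77-fold to 2.68-fold, and stayed near the control level with siTsg101#2. TGFA (chr2:70674416-70781325), a ligand of EGFR alone, was measured with 2 to 15 reads per library and did not pass the test. AREG (chr4:75310853-75320722), a ligand of lower affinity for EGFR, had 53 counts in all libraries together and EREG (chr4:75230862-75254466), which binds EGFR and ERBB4, had 1, so that both fell under the minimum of 100 counts and were not tested.

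HBEGF stood at 16.8, 20 and 19.7 CPM with siCtrl#1 and at 12.6, 21.5 and 17.2 CPM with siCtrl#2. With siTsg101#1 it stood at 59.7, 29.1 and 41.9 CPM, and with siTsg101#2 at 16.5, 15.6 and 18.1 CPM. With siVps28#1 it stood at 36.9, 38.2 and 25 CPM, and with siVps28#2 at 56.8, 36.3 and 58.1 CPM. The 9 libraries of siTsg101#1, siVps28#1 and siVps28#2 all lay above the 6 nontargeting libraries, and the 3 libraries of siTsg101#2 lay among these.

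The log2 fold change of HBEGF relative to siCtrl#1 was 1.19 ± 0.25 with siTsg101#1 (edgeR adjusted p = 0.00105), 0.82 ± 0.25 with siVps28#1 (edgeR adjusted p = 0.0394) and 1.42 ± 0.24 with siVps28#2 (edgeR adjusted p = 0.000316). With siTsg101#2 it was −0.17 ± 0.25 (95% interval −0.69 to 0.36, edgeR adjusted p = 0.691). The mean over the 4 was 0.82 ± 0.21 (edgeR adjusted p = 0.00543). Of 12 within-batch differences 9 were positive, and the 3 negative ones were those of siTsg101#2. The nontargeting siRNAs differed by −0.13 ± 0.26 (edgeR adjusted p = 0.873), and against siCtrl#2 the mean change was 0.95 ± 0.21 (edgeR adjusted p = 0.00266). The call with siVps28#1 was lost when any replicate of siCtrl#1 or replicate 1 or 2 of siVps28#1 was left out, with adjusted p-values from edgeR between 0.0792 and 0.139.

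For TGFA the siCtrl#1 libraries held 2, 3 and 5 counts and the siCtrl#2 libraries 5, 3 and 4. The siTsg101#1 libraries held 3, 7 and 15 counts and the siTsg101#2 libraries 5, 13 and 10. The siVps28#1 libraries held 4, 5 and 6 counts and the siVps28#2 libraries 4, 12 and 5, so that no on-target group lay wholly above the 6 nontargeting libraries. Relative to the siCtrl#1 library of the same batch it was higher in 12 of 12 on-target libraries, by 0.02 to 1.44 on the log2 scale. These differences share the 3 siCtrl#1 libraries with their 2, 3 and 5 counts and are not independent. The siCtrl#2 libraries differed from them by 1.48, −0.31 and −0.15 in batches 1, 2 and 3. The mean change was 0.91 ± 0.46 (95% interval −0.04 to 1.86, edgeR adjusted p = 0.157). At this depth the interval covers both no change and a rise of more than 1.5-fold.

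AREG had between 0 and 9 counts per library. Its 6 nontargeting libraries held 10 counts and its 12 on-target libraries 43. The largest count, 9, was in replicate 3 of siTsg101#1, the deepest library. On the GRCh37 genome 563 of the 1234 bases of its transcript are shared with the copy AREGB, so that reads could be split between them. EREG had 1 read, in replicate 1 of siVps28#2. A count of 0 allows up to 3 counts, which is 0.419 to 1.23 CPM in these libraries. A level below that could thus give no read, although single reads were seen, and this limit covers counting error only.

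**Figure D2:**
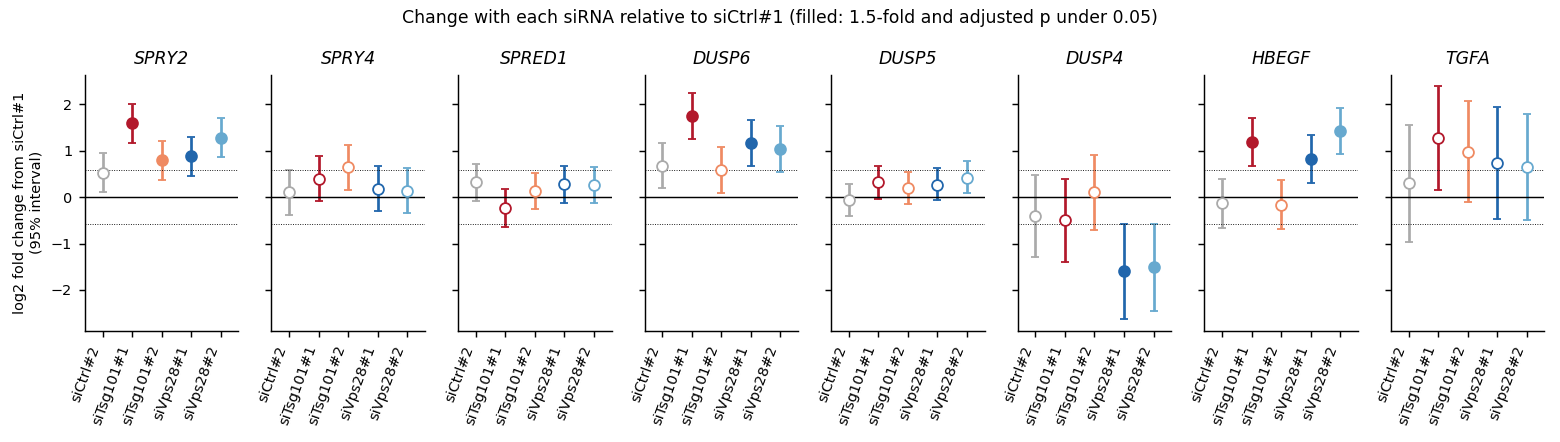
Log2 fold change relative to siCtrl#1 (vertical axis) of the 8 tested genes with siCtrl#2 and the 4 on-target siRNAs. Bars are 95% intervals, filled points passed 1.5-fold and an edgeR adjusted p under 0.05, and dotted lines mark 1.5-fold; SPRY2 is filled for all 4 on-target siRNAs, and no gene is filled for siCtrl#2.

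**Figure D3:**
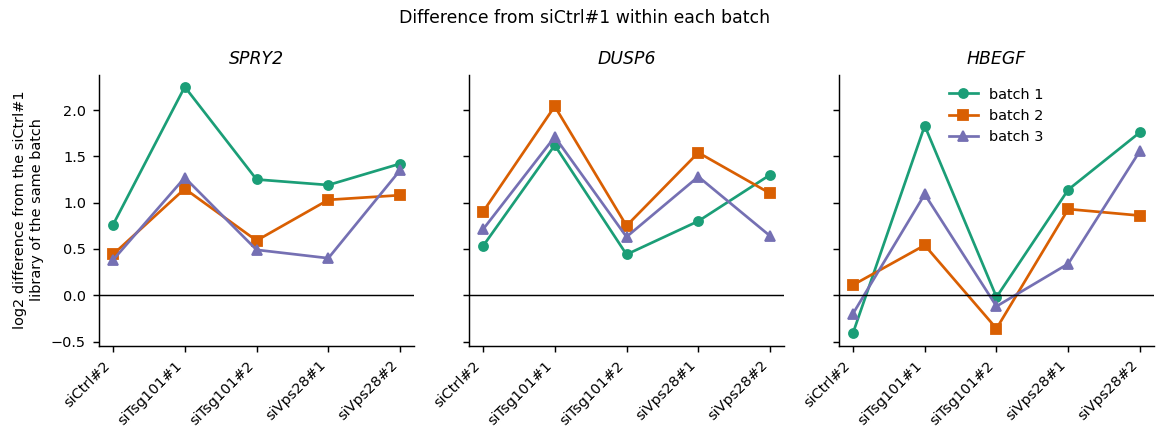
Log2 difference from the siCtrl#1 library of the same batch (vertical axis) for SPRY2, DUSP6 and HBEGF with siCtrl#2 and the 4 on-target siRNAs. Each line joins the libraries of 1 batch; SPRY2 and DUSP6 are above 0 in all 12 on-target libraries and also in the 3 siCtrl#2 libraries, and HBEGF is below 0 in the 3 siTsg101#2 libraries.

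Tsg101 and Vps28 depletion were compared through the mean of both siRNAs against each. Of the 8 tested members 2 differed, beside 4.16% of all genes that were higher and 2.07% that were lower with Tsg101 depletion. DUSP4 was higher with Tsg101 depletion by 1.35 ± 0.34 on the log2 scale (95% interval 0.65 to 2.06, edgeR adjusted p = 0.00974). HBEGF was lower with Tsg101 depletion in this mean (−0.61 ± 0.17, edgeR adjusted p = 0.0196) with 43.6 ± 15.4 CPM for siTsg101#1, 16.7 ± 1.28 CPM for siTsg101#2, 33.3 ± 7.29 CPM for siVps28#1 and 50.4 ± 12.2 CPM for siVps28#2 (SD, n = 3). The HBEGF call was lost in 6 fits that left out 1 library, at values between −0.58 and −0.50. The libraries were replicates 1 and 2 of siVps28#1, replicates 1 and 3 of siVps28#2, and replicate 2 of each Tsg101 siRNA. SPRY2 and DUSP6 differed between the targets by 0.11 (95% interval −0.18 to 0.39) and 0.06 (−0.28 to 0.40).

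The siRNAs of one target were also compared with each other. Of the 8 members 3 were higher with siTsg101#1 than with siTsg101#2, and 0 were lower, beside 3.11% and 3.87% of all genes. The differences were 1.36 ± 0.25 for HBEGF (edgeR adjusted p = 0.00104), 1.17 ± 0.24 for DUSP6 (edgeR adjusted p = 0.00279) and 0.80 ± 0.20 for SPRY2 (edgeR adjusted p = 0.0128). Without replicate 1 of siTsg101#1, the library with the fewest reads, the SPRY2 difference was 0.52 (edgeR adjusted p = 0.12), and its call was also lost without replicate 2 or 3 of siTsg101#2, at 0.72 and 0.75. In those 3 fits the calls of HBEGF and DUSP6 remained. TSG101 itself differed between these siRNAs by 0.26 ± 0.42 (95% interval −0.61 to 1.13, edgeR adjusted p = 0.774). EGFR, the receptor, stood at 111 ± 34.6 CPM with siTsg101#1 and at 57.8 ± 7.52 CPM with siTsg101#2 (SD, n = 3), beside 54.0 ± 12.2 CPM with siCtrl#1, and it was called with siTsg101#1 alone (1.05 ± 0.21, edgeR adjusted p = 0.000725). The difference of EGFR between the Tsg101 siRNAs was 0.94 ± 0.21 (edgeR adjusted p = 0.00537). Between siVps28#1 and siVps28#2 0 of 8 members were called by edgeR, beside 0.215% and 0.264% of all genes, and at an unadjusted p under 0.05 1 was lower, HBEGF (−0.60 ± 0.24, edgeR adjusted p = 0.449), beside 4.38% of all genes. DESeq2 called 0.

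The rest of the pathway was described by lists of named genes. Among 13 other phosphatase, Sprouty and SPRED genes, 10 were tested, of which 4 rose and 1 fell in the mean of the 4 siRNAs, beside 8.56% and 6.54% of all genes, with a median change of 0.21. DUSP1, an inducible nuclear MAP kinase phosphatase, rose with all 4 siRNAs (mean change 1.04 ± 0.19, edgeR adjusted p = 0.000253), from 29.9 ± 6.28 CPM with siCtrl#1 to between 49.2 ± 15.7 and 74.4 ± 17.6 CPM. DUSP16, a phosphatase of JNK and p38, also rose with all 4 (1.05 ± 0.15, edgeR adjusted p = 2.12e-05), and it was higher with siCtrl#2 (0.69 ± 0.18, edgeR adjusted p = 0.045). The JNK and p38 phosphatases DUSP8 (0.68 ± 0.17, edgeR adjusted p = 0.00545) and DUSP10 (0.82 ± 0.25, edgeR adjusted p = 0.0204) rose in the mean. DUSP8 was not called with siTsg101#1 (0.52 ± 0.21, edgeR adjusted p = 0.0689). DUSP10 was called with siVps28#2 alone (1.11 ± 0.29, edgeR adjusted p = 0.0116). DUSP7, a cytoplasmic ERK phosphatase closely related to DUSP6, fell in the mean (−0.83 ± 0.13, edgeR adjusted p = 6.47e-05), by 1.76 with siTsg101#1 and by 1.07 with siVps28#1 on the log2 scale. It was not called with siTsg101#2 (−0.17 ± 0.17, edgeR adjusted p = 0.529) or with siVps28#2 (−0.31 ± 0.17, edgeR adjusted p = 0.25). The calls of DUSP16, DUSP8 and DUSP10 in the mean were lost against siCtrl#2. The calls of DUSP8 and DUSP10 were also lost without replicate 1 of siCtrl#1, and that of DUSP10 without replicate 2, with mean changes over all alternatives of 0.48 to 0.81 for DUSP8 and 0.51 to 1.14 for DUSP10. DUSP3, an atypical small phosphatase, was lower with Tsg101 than with Vps28 depletion (−0.60 ± 0.15, edgeR adjusted p = 0.0103), with 51.6 ± 19.4 CPM for siTsg101#1 and 124 ± 12.6 CPM for siTsg101#2. The call between the targets was lost without replicate 1 of siTsg101#2, replicate 1 of siVps28#2, replicate 2 of siTsg101#1 or replicate 3 of siVps28#1. This difference ranged from −0.73 to −0.47.

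Of 7 other EGF family ligands 6 had a target, and 0 had enough counts to be tested. Of 4 ERBB receptors 3 were tested, and 0 were called in the mean of the 4 siRNAs. Of 7 receptor inhibitors and ubiquitin ligases 6 were tested, of which 1 rose and 1 fell, beside 8.56% and 6.54% of all genes. CBLB, a ubiquitin ligase of activated receptors, rose with all 4 siRNAs (1.46 ± 0.19, edgeR adjusted p = 7.06e-06), and against siCtrl#2 the mean was 0.74 ± 0.17 (edgeR adjusted p = 0.00465). siCtrl#2 stood 0.72 ± 0.23 above siCtrl#1 for CBLB (edgeR adjusted p = 0.113), a difference that passed the test with the batch as a block (edgeR adjusted p = 0.0471). LRIG3, a membrane protein of the LRIG family, fell (−0.84 ± 0.28, edgeR adjusted p = 0.0301). This call was lost against siCtrl#2, where the value was 0.07, and against the mean of both nontargeting siRNAs. It was also lost without replicate 1 or 3 of siCtrl#1, and all alternatives ranged from −1.06 to 0.07. ERRFI1, an intracellular inhibitor of EGFR, was higher with Tsg101 than with Vps28 depletion by 2.09 ± 0.32 (edgeR adjusted p = 6.14e-05), at 8.19 ± 2.38 and 6.60 ± 2.24 CPM with the Tsg101 siRNAs and 1.63 ± 0.681 and 1.85 ± 0.895 CPM with the Vps28 siRNAs. Its change in the mean of the 4 siRNAs was 0.98 ± 0.41 (edgeR adjusted p = 0.0852). With the block ERRFI1 passed the test (1.06 ± 0.30, edgeR adjusted p = 0.0103), so that 2 genes of this list rose there. Relative to siCtrl#1 it changed by −0.16 with siVps28#1 and by 0.04 with siVps28#2. The nontargeting siCtrl#2 stood 0.92 ± 0.50 above siCtrl#1 for ERRFI1 (edgeR adjusted p = 0.408).

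Among the 5 tested genes of ligand shedding, 1 rose in the mean, beside 8.56% of all genes, and 2 did with the batch as a block. It was ADAM17, the main sheddase of HBEGF, TGFA and AREG precursors (0.82 ± 0.15, edgeR adjusted p = 0.000313). This call was lost against siCtrl#2, at 0.54, a value below 1.5-fold. Antisense genes overlap 1863 exonic bases of ADAM17. With the block RHBDF2, an inactive rhomboid protein that escorts ADAM17 to the cell surface, passed the test too (0.67 ± 0.20, edgeR adjusted p = 0.0158), where the fit without it gave 0.65 ± 0.24 (edgeR adjusted p = 0.0574). For RHBDF2 the nontargeting siCtrl#2 differed from siCtrl#1 by −0.99 ± 0.34 (edgeR adjusted p = 0.155). ADAM9, a related metalloprotease, was higher with Tsg101 than with Vps28 depletion (0.59 ± 0.11, edgeR adjusted p = 0.000436), a value at the 1.5-fold limit whose call was lost in 9 of 24 alternative settings, each of which left out 1 library, with a range of 0.53 to 0.67.

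Of 20 adaptor and RAS, RAF, MEK and ERK genes 18 were tested, of which 2 rose in the mean of the 4 siRNAs and 0 fell, beside 8.56% and 6.54% of all genes. SOS2, an exchange factor that loads RAS, rose by 2.22 ± 0.34 (edgeR adjusted p = 5.49e-05), from 1.41 ± 0.424 CPM with siCtrl#1 to 14.7 ± 3.17 and 16.1 ± 4.03 CPM with the Tsg101 siRNAs, and to 2.46 ± 0.843 and 3.86 ± 1.66 CPM with the Vps28 siRNAs. The difference between the targets was 2.29 ± 0.23 (edgeR adjusted p = 1.82e-07). SOS2 was not called with all 4 siRNAs. Its mean change ranged from 1.34 to 2.39 over the alternatives, with the call kept in each. NRAS, one of the RAS proteins, rose by 0.96 ± 0.13 (edgeR adjusted p = 1.09e-05), and it rose as much with siCtrl#2 (1.09 ± 0.15, edgeR adjusted p = 0.000199), so that its change against siCtrl#2 was −0.13.

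Of 14 other genes that ERK is known to induce or stabilise 12 were tested, of which 1 rose and 4 fell in the mean, beside 8.56% and 6.54% of all genes, with a median change of 0.02. MCL1, a survival protein of the BCL2 family, rose with all 4 siRNAs (1.01 ± 0.12, edgeR adjusted p = 1.77e-06) and with siCtrl#2 (0.81 ± 0.14, edgeR adjusted p = 0.00178). CCND1, cyclin D1 of the G1 phase, fell with all 4 (−0.85 ± 0.13, edgeR adjusted p = 4.06e-05), from 286 ± 27.7 CPM to between 152 ± 17.6 and 165 ± 24.6 CPM. The receptor kinase EPHA2 (−0.74 ± 0.16, edgeR adjusted p = 0.00147) and the ETS factors ETV1 (−1.18 ± 0.30, edgeR adjusted p = 0.00552) and ETV4 (−0.61 ± 0.17, edgeR adjusted p = 0.00965) fell in the mean. EPHA2 was not called with siVps28#2 (−0.19 ± 0.21, edgeR adjusted p = 0.613). ETV1 was not called with siTsg101#2 (−0.75 ± 0.36) or siVps28#1 (−0.44 ± 0.38). ETV4 was not called with siTsg101#1 (−0.48 ± 0.22) or siVps28#1 (−0.55 ± 0.22). The ETV1 call was lost without replicate 1 of siCtrl#1, in a range of −1.52 to −0.69, and the ETV4 call without replicate 3 of siCtrl#1, replicate 2 of siTsg101#1 or replicate 3 of siVps28#2, in a range of −0.78 to −0.33. IER3, an immediate early stress gene, was lower with Tsg101 than with Vps28 depletion (−0.76 ± 0.15, edgeR adjusted p = 0.0014), and 525 of its exonic bases overlap antisense genes. FOS, EGR1, MYC, ETV5 and FOSL1 were not called in the mean, although the mean change of FOS, 0.64 ± 0.24 (edgeR adjusted p = 0.0588), passed the test with the batch as a block (0.66 ± 0.24, edgeR adjusted p = 0.0415). Against siCtrl#2 the calls of MCL1, CCND1 and ETV4 were lost, at 0.20, −0.56 and −0.52, all of them below 1.5-fold. The ETV4 call was also lost against the mean of both nontargeting siRNAs. An antisense gene overlaps 497 exonic bases of CCND1. For MCL1, a gene on the same strand overlaps 328 exonic bases and an antisense gene overlaps 43.

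**Figure D4:**
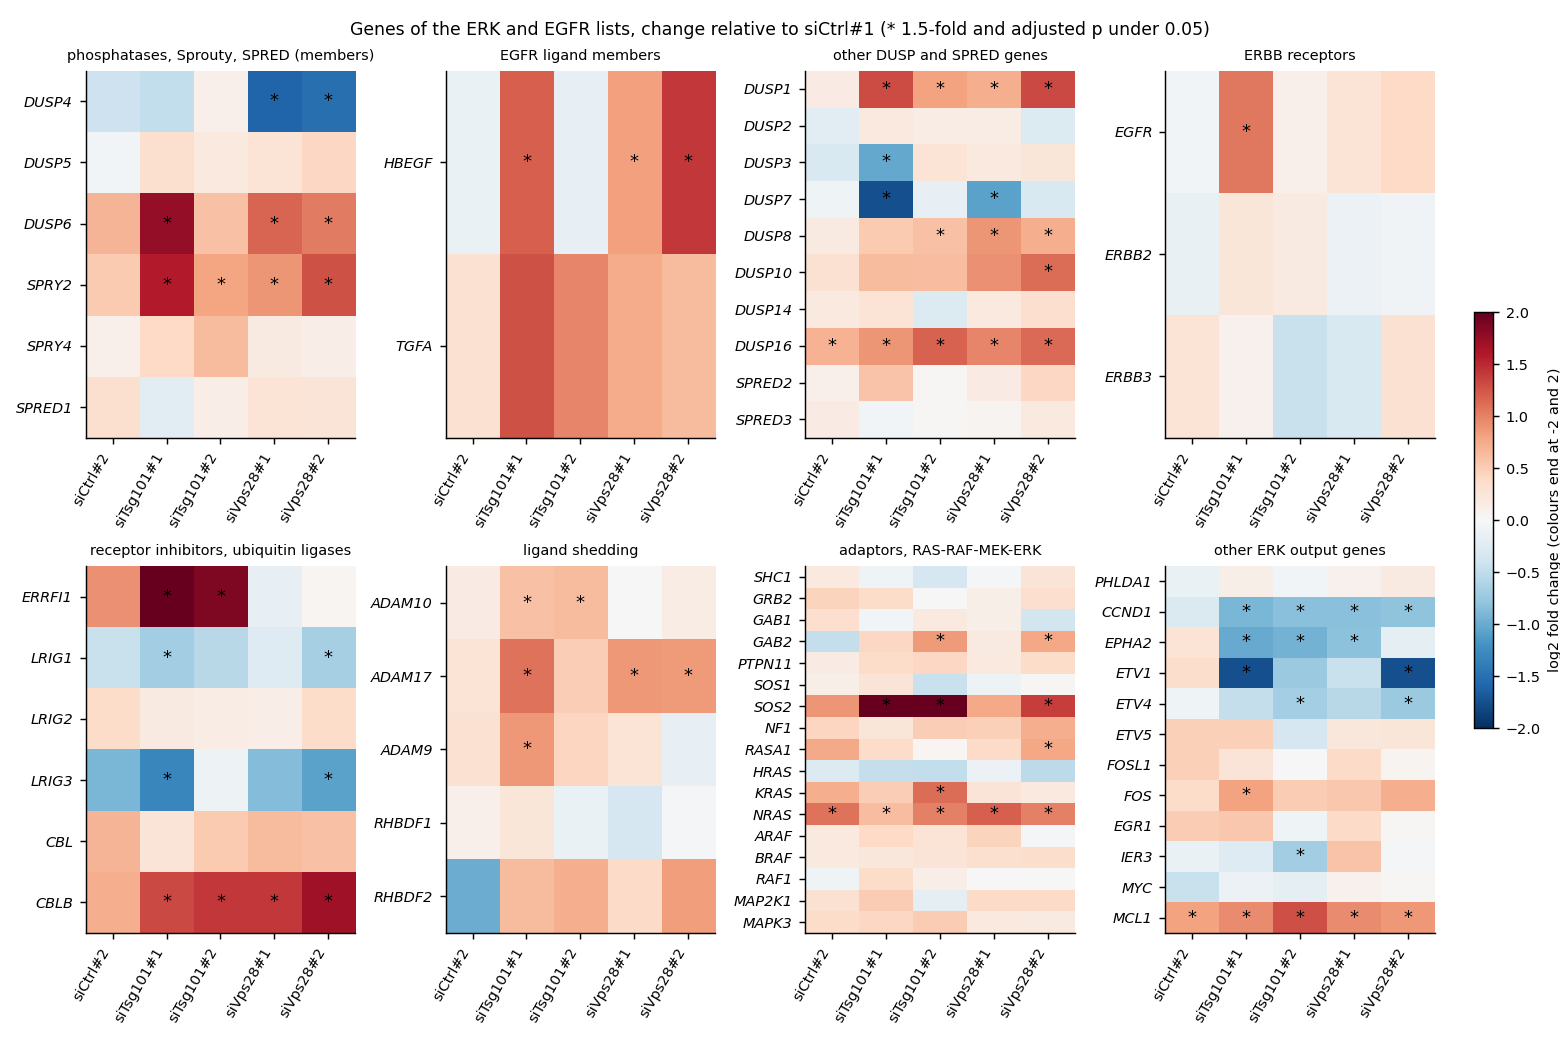
Log2 fold change relative to siCtrl#1 (colour, ending at −2 and 2) of genes of the ERK and EGFR lists (rows) with siCtrl#2 and the 4 on-target siRNAs (columns). A star marks 1.5-fold and an edgeR adjusted p under 0.05; SPRY2, DUSP1, DUSP16, CBLB, NRAS and MCL1 are starred as higher and CCND1 as lower with all 4 on-target siRNAs, and DUSP16, NRAS and MCL1 also with siCtrl#2.

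For the 3 members with the largest mean change, the genes whose levels followed them most closely over the 18 libraries were listed by Pearson's r of log2(CPM + 1), as a description. RGS4 (r = 0.955) and BCL6 (r = 0.898) were closest to DUSP6, and ITPKC (r = 0.946) and TRIB1 (r = 0.92) were closest to SPRY2. TARS2 (r = 0.789) and GSTZ1 (r = 0.78) were closest to TGFA, whose counts are few. The 18 libraries share the 6 groups, 3 batches and their depths.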

How the data were processed

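RNA of 18 RKO libraries (6 siRNA groups, 3 replicates) was sequenced on an Ion Proton instrument after amplification with the Ion AmpliSeq transcriptome panel. The authors mapped them to an hg19 reference of the panel and deposited raw counts per transcript target made with HTSeq-count (HTSeq 0.6.0 in the submitters' processing notes, which also list DESeq2 1.18.1). Counted reads were 45.4% to 46.7% of each library, and 48.23% to 49.07% had no feature. Genes were named from RefSeq accessions (20224 of 20802 targets matched). Targets with more than 100 counts over all libraries were kept, and 419 noncoding ones were left out, which left 10213. TMM-normalised counts of all groups were fitted together with edgeR 4.0.16 under R 4.3.3 in place of DESeq2, used by the study, and contrasts were tested by quasi-likelihood, with p-values adjusted after Benjamini and Hochberg. The code was tested on simulated data. CPM values are TMM-normalised.

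The members and lists were chosen with earlier results of these data known. Genes named are all members, both targets, the markers, list genes called with all 4 siRNAs, in their mean or between targets, and the closest genes of 3 members. Other list genes were named after their values were seen, and 1 is not reported here. Replicate numbers pair the libraries because the labels give them as the batch. Deviations from group means correlated at 0.149 on average over 45 same-number pairs (−0.167 to 0.412). P-values set each difference against the spread between replicates, which in the main fit was estimated over all groups together. The reads carry no molecular identifiers, and counting limits cover counting error only. The AmpliSeq amplicon positions were not used here, so that levels were not compared between genes. Alternatives were DESeq2 1.42.0, RLE size factors, other count filters, all targets, other references, a replicate block, only the groups compared, an adjusted p alone and each library left out in turn.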

Additional observations from a re-analysis of the deposited data

Results flagged for a closer look

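Several genes differed between groups treated under the same contrast, by the test of the difference itself. Between Tsg101 and Vps28 depletion, the members DUSP4 (log2 difference 1.35) and HBEGF (−0.61) differed, as did the list genes ERRFI1 (2.09), SOS2 (2.29), ADAM9 (0.59), DUSP3 (−0.60) and IER3 (−0.76). The targets TSG101 (−4.97) and VPS28 (3.97) differed as the labels state. Between siTsg101#1 and siTsg101#2, the members HBEGF (1.36), DUSP6 (1.17) and SPRY2 (0.80) and the list genes EGFR (0.94), ETV5 (0.82), SOS1 (0.70), MAP2K1 (0.70), ADAM17 (0.59), DUSP3 (−1.28) and DUSP7 (−1.59) differed. Between siVps28#1 and siVps28#2, DUSP7 differed (−0.75). DUSP6 and DUSP7 differed in opposite directions between the Tsg101 siRNAs. Groups of 3 were too small for a test of outlying libraries.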

How the results depend on the processing

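The number of members changed with all 4 siRNAs, 1, was 0 with siCtrl#2, or both controls averaged, as the reference, 2 with the replicate block (DUSP6 and SPRY2), and 0 to 1 with 1 library left out. The count for siTsg101#2, 1, was 2 with DESeq2, without the low-count filter, with at least 10 counts in every library and with only the groups compared, in each case with SPRY4 added, 3 with the replicate block, 0 against siCtrl#2, and 0 to 2 with 1 library left out. The counts for siVps28#1 and siVps28#2, 4 each, were 1 and 2 against siCtrl#2, and 1 to 4 and 2 to 5 with 1 library left out. The 2 members that differed between the targets became 1 with at least 10 counts in every library, where DUSP4 was not tested, and 1 to 2 with 1 library left out. The count for siCtrl#2, 0, was 1 (DUSP6) without the low-count filter and with the replicate block, which changed no other member's call than those given for DUSP6 and SPRY4. The mean change of SPRED1 turned to −0.21 against siCtrl#2 and −0.05 against the mean of both, neither past the threshold. The mean change of DUSP6 lost its call against siCtrl#2, at 0.46, and that of DUSP4 gained one without the filter, at −0.88, and in 4 fits that left out 1 library, at −1.26 to −0.96. Over all settings the mean change ranged from 0.61 to 1.22 for SPRY2 and from 0.74 to 0.95 for HBEGF, with every call kept. Of 90 counts under settings other than leaving out a library, 76 stayed within 1.5 times the count given. The cause of each change was not tested, apart from the test's own construction where DUSP4 had too few counts. Depth limits DUSP4 and TGFA most, and AREG and EREG were not testable at the minimum used.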
